A study of Saccharomyces cerevisiae with 4 samples.

Results

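The probes of the 8 respiratory and ribosomal proteins encoded by the yeast mitochondrial genome were followed across comparisons of strains evolved to tolerate heat and acid. The 8 genes were found by their systematic names among the 6336 genes on the array: COX1 (Q0045), COX2 (Q0250), COX3 (Q0275), COB (Q0105), ATP6 (Q0085), ATP8 (Q0080), OLI1 (Q0130) and VAR1 (Q0140). The rule used gene identity only, although it was set with earlier results of these data known. COX1, COX2 and COX3 are the catalytic core of cytochrome c oxidase, and COB is cytochrome b of the cytochrome bc1 complex. ATP6, ATP8 and OLI1 belong to the membrane part of the ATP synthase, and VAR1 is a protein of the small subunit of the mitochondrial ribosome.

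In Saccharomyces cerevisiae these genes lie on a DNA of their own and are transcribed by a dedicated polymerase, Rpo41, with the initiation factor Mtf1. COX1, ATP8 and ATP6 are made as one precursor transcript, OLI1 and VAR1 share another, and COB, COX2 and COX3 belong to further units, so that levels of single mRNAs also depend on splicing, processing and turnover. The products are assembled with subunits encoded in the nucleus, and growth on glucose is known to repress respiratory genes of both genomes.

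S288C was the parental strain. TTY23 was evolved from it at elevated temperature, AT22 was evolved from it on acetic acid at low pH, and TAT12 was evolved from TTY23 under acidic conditions. Each evolved group is thus 1 selected strain. None of the strains was under stress when sampled: all grew in flasks of defined medium with 2% glucose at 30 °C and a labelled pH of 5.0, without acetic acid, and were harvested in the middle of the exponential phase. The question was which expression differences the evolved strains carried under the ancestral condition.

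RNA of a pair of strains was labelled with Alexa555 and Alexa647 and hybridised together to a 2-colour oligonucleotide array. AT22 and TAT12 were each paired with S288C, and TAT12 was further paired with TTY23 and with AT22. Every pair was run on 2 arrays with the dyes exchanged (a dye swap). A dye swap was counted as 1 replicate, so every comparison had n = 1, and the spread between cultures was not measured for any value. The only test was a limma fit with 1 residual degree of freedom from the closed loop of 3 of the strains. It called 0 genes in any comparison after Benjamini-Hochberg adjustment. Of the 6336 genes tested, 91 to 253 had an unadjusted p under 0.05, a share below 0.05 in every comparison. Each value below is a log2 ratio after background correction and loess normalization, given for the first and the second array, turned to the same direction, and as their mean. The z-score is the distance of this mean from that of the 100 genes nearest in intensity, in units of their SD, and a gene was called when its absolute z-score was above 2. Signals of different probes were not compared with each other.

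The arrays limit what can be read. The median signal was 2.51 to 3.52 times the local background in Alexa555 and 1.22 to 3.09 times in Alexa647, and 42.6 to 69.6% of genes exceeded the empty spots in both dyes. Over all 6336 genes, the turned ratios of both arrays of a swap correlated with r = −0.030 and 0.092 where AT22 and TAT12 were set against S288C, and with 0.13 and −0.17 where TAT12 was set against TTY23 and AT22. The second array of AT22 with S288C correlated at r = −0.59 with the second array of TAT12 with S288C, although both were labelled with the dyes in the same orientation and share S288C. This r alone cannot tell which of both arrays departs from its label. The direction of the AT22 array is therefore not settled, and values for AT22 with S288C are also given with that array turned. The TAT12 array was used as labelled, and turning it was not tried.

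The 8 probes themselves exceeded the empty spots on most arrays, COX2 in part narrowly. A net signal above the 95th percentile of the empty spots was found in both dyes of all 8 arrays for every gene except COX2, which was not above it in Alexa647 on either array of TAT12 with AT22. Over the 8 arrays the net signal of COX1 in Alexa555 ranged from 396 to 1347, that of OLI1 from 304 to 1874, that of COX2 from 79.5 to 395 and that of VAR1 from 94.0 to 186. Each gene was printed in duplicate, and the duplicate spots differed by 0.0024 to 0.22 on the log2 scale, with a median of 0.060. The difference between the arrays of a swap was often larger: in 11 of the 32 pairs of gene and comparison the arrays had opposite signs. In the other 21 pairs they had the same sign, as did 42.1 to 52.9% of all genes, depending on the comparison.

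In TAT12 compared with TTY23, the strain from which it was evolved, COX1, ATP8 and ATP6 were called higher in TAT12, and no member was called lower. These 3 genes are the members of a single transcription unit, and all 3 were above 0 on both arrays. The 3 called genes stand among 8, beside 5.51% of all genes called in either direction and 3.08% called higher. OLI1, the ring subunit of the ATP synthase, lay just under the threshold at z = 1.85, so all 3 ATP synthase genes had ratios between 0.57 and 0.84.

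COX1 had log2 ratios of 0.79 and 1.06 on both arrays, a mean of 0.93, which is 1.90-fold, and z = 2.51. Its net signal on the first array was 818 for TTY23 in Alexa555 and 1416 for TAT12 in Alexa647. On the second array, with the dyes exchanged, it was 1347 for TAT12 and 576 for TTY23. The TAT12 signal was the higher one in either dye before any normalization.

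ATP8, a small subunit beside the proton channel of the ATP synthase, had log2 ratios of 0.25 and 1.43, a mean of 0.84 or 1.79-fold, and z = 2.61. Its arrays had the same sign but differed widely, with net signals of 755 for TTY23 and 890 for TAT12 on the first and 1201 for TAT12 and 381 for TTY23 on the second. ATP6, the subunit that forms the proton channel with the OLI1 ring, had log2 ratios of 0.44 and 0.70, a mean of 0.57 or 1.49-fold, and z = 2.07. Its net signal on the first array was 539 for TTY23 and 744 for TAT12, and on the second array that of TTY23 was 338 and that of TAT12 again the higher one.

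OLI1 had log2 ratios of 0.44 and 0.78, a mean of 0.61 or 1.53-fold. VAR1, which shares its precursor transcript, had −0.12 and −0.03 with a mean of −0.07 (z = −0.34). The members of this unit were thus 0.68 apart in the comparison, against 0.35 between the lowest and the highest of COX1, ATP8 and ATP6. COB had −0.0019 and 0.35, with a mean of 0.18 and z = 0.52.

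The other cytochrome c oxidase genes were not called and lay below 0 in the mean. COX2 had log2 ratios of −0.86 and 0.42 with a mean of −0.22 (z = −1.01), so its arrays had opposite signs, and COX3 had −0.43 and −0.04 with a mean of −0.24 (z = −0.97). Among the 8 genes 5 were above 0 and 3 below, 4 were above 0 on both arrays beside 24.7% of all genes, and 2 were below 0 on both, beside 25.3%. The median of the 8 was 0.37, with 0.12 on the first array and 0.56 on the second, beside 0.0080 for all genes. Within cytochrome c oxidase the 3 ratios spanned 1.16.

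**Figure D1:**
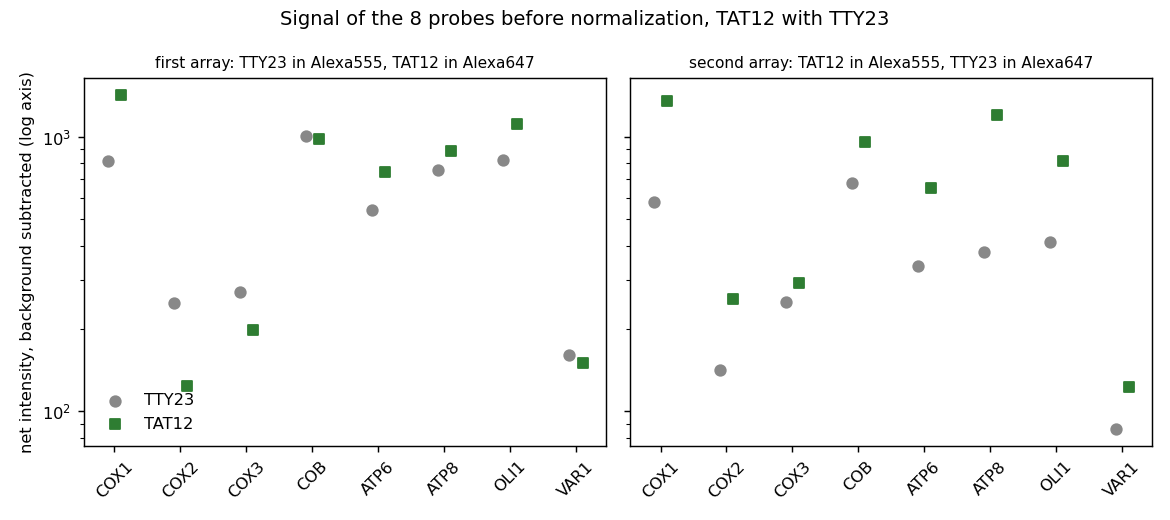
Net intensity of the 8 probes (log axis, scanner intensity minus local background, mean of the duplicate spots) for TTY23 (grey circles) and TAT12 (green squares) on both arrays of the dye swap, with 1 panel per array. For COX1, ATP6, ATP8 and OLI1 the TAT12 signal is the higher one in both panels, while for COX2, COX3, COB and VAR1 the strain in Alexa555 is the higher one in each.

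These calls depended on the array. On the first array alone COX1 had z = 1.93, ATP6 1.28 and ATP8 0.56, and the only gene called was COX2, at −3.82. On the second array alone COX1, ATP8 and OLI1 were called, with z = 2.39, 3.74 and 2.23, and ATP6 had 1.63. All mitochondrially encoded probes were printed in the first row of the 32 printed blocks, and the 354 other genes of these rows had median ratios of −0.13 on the first and 0.16 on the second array. With the loess curve fitted within each block, an alternative chosen after seeing the data, COX1 had z = 2.68, ATP8 2.77, OLI1 2.12 and ATP6 1.90, so that OLI1 was called in place of ATP6. This fit has no term for the row within a block, so it cannot show what the first row contributes. The part of the print position in the ratios was not tested.

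In TAT12 compared with S288C, 0 of the 8 genes were called, beside 5.05% of all genes. OLI1 had log2 ratios of 1.06 and 0.41 with a mean of 0.74 (z = 1.22), COX1 had 1.06 and 0.13 with a mean of 0.60 (z = 1.29), and COB had 0.86 and 0.08 with a mean of 0.47 (z = 1.01). Their ratios on the first array were the larger ones. On this array, net signals of COX1 were 631 for S288C and 623 for TAT12, the median signal over background of the TAT12 channel was 1.22, the lowest of all channels, and the ratio of 1.06 came from the normalization.

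ATP8 had log2 ratios of 0.20 and 0.51 with a mean of 0.35 (z = 0.81), and COX3 had 0.41 and 0.28 with a mean of 0.34 (z = 1.13). These ratios were above 0 on both arrays. ATP6 had 0.66 and −0.31 with a mean of 0.17, and COX2 had −0.42 and 0.70 with a mean of 0.14, both with opposite signs on the arrays. VAR1 was the only member below 0, with −0.18, −0.42, a mean of −0.30 and z = −1.23.

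Of the 8 genes 7 were above 0 in the mean after loess, but 4 were with centring on the median of each array, which put COB, ATP6 and ATP8 at −0.06, −0.29 and −0.10. The median of the 8 was 0.35 after loess, beside 0.020 for all genes, and −0.024 after median centring. On both arrays 5 were above 0, beside 25.4% of all genes. The z-scores hardly moved with this choice (COX1 1.23, OLI1 1.28), since they are taken relative to genes of like intensity. VAR1 kept its sign, at −0.33.

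**Figure D2:**
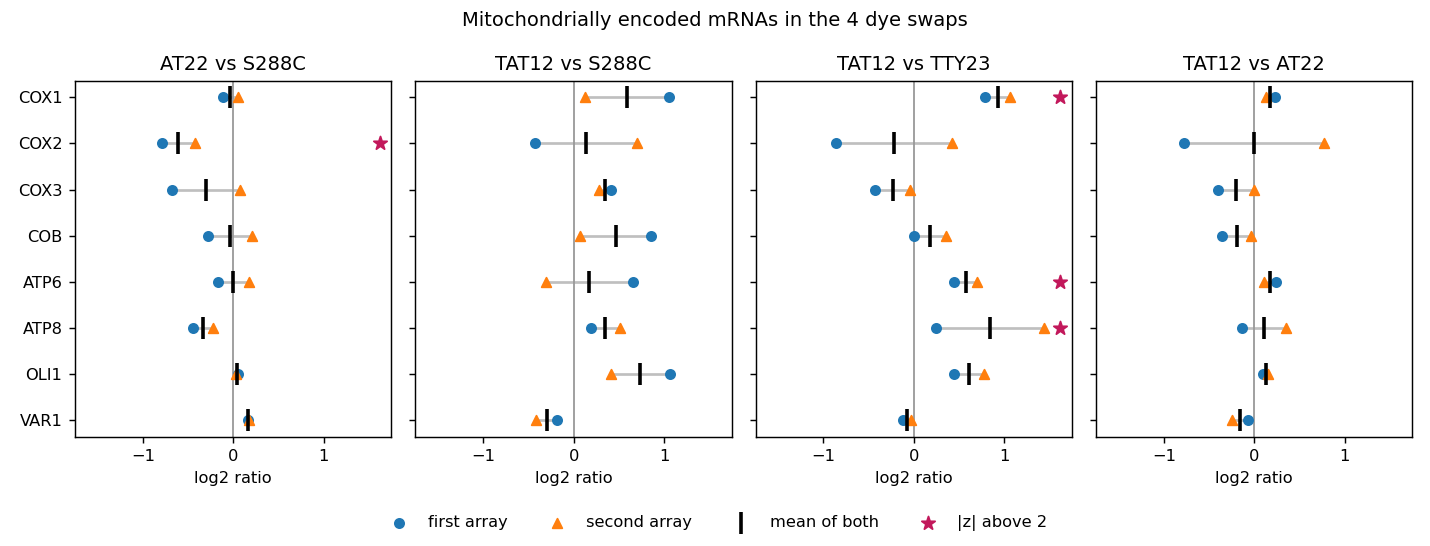
Log2 ratio of each of the 8 genes (x axis, first strain over second) in the 4 dye swaps, with the first array as a blue circle, the second array as an orange triangle, their mean as a black bar and a star where the absolute z-score was above 2. COX1, ATP8 and ATP6 carry stars in TAT12 with TTY23 and COX2 in AT22 with S288C, and COX2 has its arrays on opposite sides of 0 in the other 3 comparisons.

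In AT22 compared with S288C, COX2 was the only member called, lower in AT22, beside 4.62% of all genes called in either direction and 4.09% called lower than in S288C. COX2, the copper-binding subunit that receives electrons from cytochrome c, had log2 ratios of −0.79 and −0.43, a mean of −0.61 or 0.656-fold, and z = −2.39. Its net signal was 198 for S288C and 58.6 for AT22 on the first array, and 79.5 for AT22 and 104 for S288C on the second. The AT22 signals were close to the 95th percentile of the empty spots, which was 50.2 and 78.4 in these channels. With the second array turned the mean was −0.18 and z = −0.80, and 0 of the 8 genes were called, beside 4.02% of all genes. Neither array alone gave the call, with z = −1.76 and −1.22.

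The other 7 genes had z-scores between −1.18 and 0.72. COX3 had log2 ratios of −0.68 and 0.08 with a mean of −0.30, which was −0.38 with the second array turned. ATP8 had −0.44 and −0.22 with a mean of −0.33, and −0.11 turned. COX1 had −0.12 and 0.05, COB −0.28 and 0.20, and ATP6 −0.17 and 0.17, and these 3 genes had opposite signs on the arrays as labelled and means between −0.036 and 0.00075. With the second array turned, the arrays of each had the same sign, and the means were −0.08 for COX1, −0.24 for COB and −0.17 for ATP6.

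OLI1 had ratios of 0.05 and 0.02 with a mean of 0.04, and 0.014 turned. VAR1 had 0.16 and 0.17 with a mean of 0.17 (z = 0.72), and with the second array turned its mean was −0.0033 and its arrays had opposite signs. The median of the 8 genes was −0.035 beside 0.025 for all genes, and −0.14 with the array turned, when 7 of the 8 were below 0. The same sign on both arrays was found for 4 of the 8 genes, beside 52.9% of all genes, and with the array turned for the other 4, beside 47.1%.

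In TAT12 compared with AT22, 0 of the 8 genes were called, beside 4.28% of all genes. COX1, ATP6 and OLI1 were above 0 on both arrays, as were 21.3% of all genes. COX1 had 0.23 and 0.13, ATP6 0.24 and 0.11, and OLI1 0.10 and 0.16, with means of 0.18, 0.18 and 0.13 (z = 0.47, 0.59 and 0.30). ATP8 had −0.13 and 0.36 with a mean of 0.11. The means of COX1, ATP8 and ATP6 lay within 0.065 of each other.

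COB had −0.36 and −0.03 with a mean of −0.20, COX3 had −0.40 and 0.0011 with a mean of −0.20 (z = −1.22), and VAR1 had −0.07 and −0.25 with a mean of −0.16 (z = −1.12). COX2, dim in Alexa647 on both arrays, had −0.78 and 0.77 with a mean of −0.0065. Each of its arrays alone would have called it, in opposite directions, with z = −3.97 and 3.63. The median of the 8 genes was 0.053 beside −0.010 for all genes.

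After normalization, the COX2 probe was lower in Alexa647 than in Alexa555 on 7 of the 8 arrays, whichever strain the dye carried. On these 7 arrays the log2 ratio of Alexa647 over Alexa555 ran from −0.42 to −0.86. The remaining array, the second of AT22 with S288C, had 0.43, and its direction is not settled. In these normalized ratios no other member was on one side on more than 6 of the 8 arrays. The 354 other genes of the first printed rows had smaller medians with the same pattern. Turned to the comparison, these medians were −0.18 to −0.076 on the first arrays. They were 0.14 to 0.19 on the second arrays of the TAT12 comparisons and −0.063 on that of AT22 with S288C. By dye, they were thus lower in Alexa647 on the same 7 arrays. The part of the print position was not tested. Before normalization, the net signal of COX3 was the lower one in Alexa647 on every array. For COX1, ATP6 and OLI1 the dye ratio changed sign with the exchange of the dyes when TAT12 was compared with TTY23 and with AT22, which the turned ratios show as the same sign on both arrays.

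**Figure D3:**
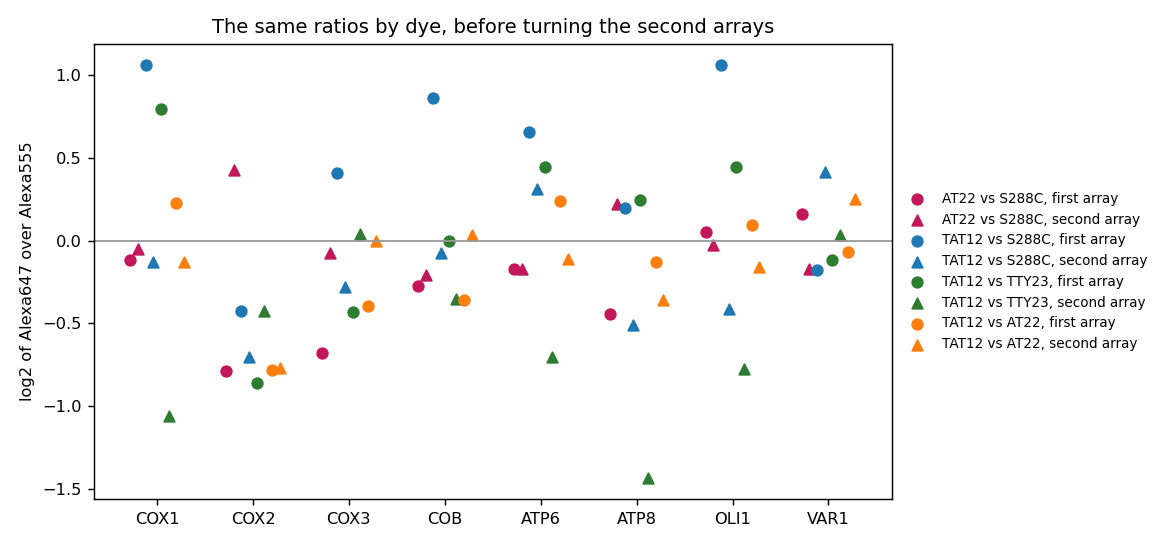
Log2 ratio of Alexa647 over Alexa555 for each gene on each of the 8 arrays (circles, first arrays; triangles, second arrays; colours, comparisons), before the second arrays were turned. COX2 lies between −0.42 and −0.86 on 7 arrays and at 0.43 on the second array of AT22 with S288C, while the other genes spread over both sides of 0.

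S288C, AT22 and TAT12 were compared with each other in a closed loop, so that TAT12 over S288C can also be obtained through AT22. Both routes gave 0.17 and 0.18 for ATP6, but 0.60 and 0.14 for COX1, 0.74 and 0.17 for OLI1, 0.35 and −0.22 for ATP8, 0.47 and −0.23 for COB, 0.34 and −0.50 for COX3, and 0.14 and −0.61 for COX2. VAR1 had −0.30 directly and 0.0072 through AT22. The median absolute difference between the routes was 0.57 for the 8 genes and 0.28 for all genes, and with the second array of AT22 with S288C turned it was 0.43 and 0.19. As labelled, COX1, ATP6 and OLI1 were above 0 by both routes, and the other 5 genes were on opposite sides of 0. With the array turned, the route through AT22 gave 0.00020 for ATP8 and −0.16 for VAR1, on the side of their direct ratios, and COX2, COX3 and COB stayed on opposite sides. Turning brought the routes closer for 3 of the 8 genes (COX2, ATP8 and VAR1) and further apart for the other 5, such as COB with a difference of 0.70 as labelled and 0.90 turned.

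TTY23 over S288C was obtained only as the difference of the comparisons of TAT12 with each of them. COX3 stood at 0.58, COX2 at 0.36, COB at 0.29 and OLI1 at 0.13, while ATP8 stood at −0.49, ATP6 at −0.40, COX1 at −0.33 and VAR1 at −0.22. The members of the COX1, ATP8 and ATP6 unit were all below 0 in this estimate, and the median of the 8 genes was −0.048. On its first arrays alone COX1 stood at 0.27 and ATP6 at 0.21, and on the second at −0.93 and −1.01, so the sign of both rested on the second arrays. COB, at 0.86 and −0.28, and OLI1, at 0.62 and −0.36, likewise had opposite signs on the first and second arrays.

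Over the 8 arrays, COX1 correlated with OLI1 at r = 0.90 (0.91 with the second array of AT22 with S288C turned), with ATP6 at 0.89 (0.93) and with ATP8 at 0.64 (0.58). ATP6 and ATP8, whose reading frames are neighbours on 1 transcript, correlated at 0.47 (0.46), and OLI1 and VAR1 at −0.38 (−0.17). COB correlated with OLI1 at 0.85 (0.96). These r describe 8 arrays that share strains and dyes and are not independent.

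Among 2161 other genes above the empty spots on all arrays, the 5 whose ratios on the 8 arrays were most like the median of the 8 genes were RAV1 (r = 0.96), HAC1 (0.89), YMR050C (0.89), HSC82 (0.89) and ERG24 (0.88). RAV1 is a factor for the assembly of the vacuolar proton pump, HAC1 the transcription factor of the unfolded protein response, HSC82 a chaperone of the Hsp90 family with the near-identical copy HSP82, and ERG24 an enzyme of ergosterol synthesis. YMR050C belongs to a Ty1 element, a family with many copies that a probe may not separate. With the second array of AT22 with S288C turned, their r was 0.82 to 0.92, and they ranked 3 to 26. In TAT12 with TTY23, RAV1 stood at 0.37, and HSC82 was the only one of the 5 called, at 0.46 (z = 2.35).

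The other probes for the mitochondrial genome were mostly dim. They are 15 probes for intron-encoded proteins, such as maturases and endonucleases, and for further reading frames, and 6 to 12 of them exceeded the empty spots in both dyes, depending on the comparison. In TAT12 with TTY23, 1 was called higher and 2 lower, beside 3.08% and 2.43% of all genes, with a median of 0.04. The gene named by rule was Q0143, at −1.22 and −0.19 with a mean of −0.71 (z = −3.28). Q0032 (−0.44, z = −2.31) and AI5_ALPHA (0.31, z = 2.28), the latter not above the empty spots, had arrays of opposite sign and are named here after their values were seen.

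AI4 and AI5_BETA, both from introns of COX1, were at 0.57 and 0.43 in that comparison and BI4, from an intron of COB, was at 0.53, none of them called and all chosen after their values were seen. The other intron probes of COX1 were at −0.20 (AI1), −0.16 (AI2), 0.04 (AI3) and 0.31 (AI5_ALPHA). Those of COB were at −0.06 (BI2) and 0.11 (BI3). AI2, AI5_ALPHA and BI2 were not above the empty spots. In AT22 with S288C, 4 of the 15 were called lower (AI2, AI5_ALPHA, BI2 and Q0255, from −1.48 to −0.71, none above the empty spots), beside 4.09% of all genes, and 0 were called with the second array turned. AI5_ALPHA and BI2 were called higher in TAT12 with S288C, beside 3.11% of all genes. Both had opposite signs on the arrays and were not above the empty spots. In TAT12 with AT22, 0 were called, beside 4.28% of all genes. These genes are likewise named after their values were seen.

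**Figure D4:**
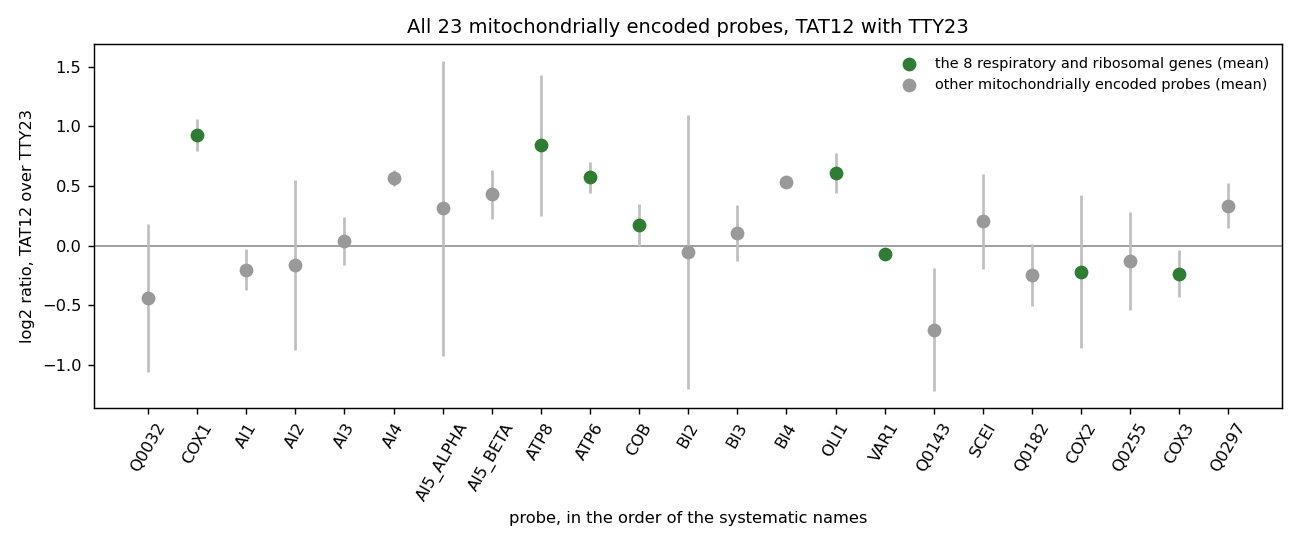
Log2 ratio of TAT12 over TTY23 for all 23 mitochondrially encoded probes in the order of their systematic names, with points at the mean of both arrays and lines from the lower to the higher array (green, the 8 genes described; grey, other probes). COX1, ATP8, ATP6 and OLI1 lie at 0.57 to 0.93 with both arrays above 0, while AI5_ALPHA and BI2 span both sides of 0 widely.

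Of 27 nuclear genes that serve the expression of the mitochondrial genome (the polymerase and its factor, translational activators, RNA processing and decay factors), 0 were called higher in TAT12 than in TTY23 and 2 lower, beside 2.43% of all genes called lower, and their median was −0.028. RPO41, the mitochondrial RNA polymerase, was called lower at −0.53 and −0.69 with a mean of −0.61, just past the threshold. NCA2, which acts in the expression of ATP6 and ATP8, was at −0.19 (z = −2.67), was not above the empty spots and is named after its value was seen.

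Of the 9 nuclear subunits of the cytochrome bc1 complex, the partners of COB, 3 were called higher in TAT12 than in TTY23, beside 3.08% of all genes, with a median of 0.27 and 8 above 0. QCR10 had 0.69 and 0.12 with a mean of 0.40 (z = 2.53), QCR8 had 0.22 and 0.77 with a mean of 0.50 (z = 2.49), and QCR9, named after its value was seen, had 0.47 and 0.55 with a mean of 0.51 (z = 2.27). All 3 are small subunits of the complex. COB itself was at 0.18 in this comparison.

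Among 9 nuclear subunits of cytochrome c oxidase and 14 of the ATP synthase, 0 were called in TAT12 with TTY23, with medians of 0.071 and 0.034. Over all genes, 3.08% were called higher and 2.43% lower in this comparison, and the counts below stand beside these shares. A list of 33 genes was taken for the small mitochondrial ribosomal subunit, to which VAR1 belongs. It also holds KGD4, which is not a ribosomal protein and was not called. Of the 33 genes, 1 was called higher and 1 lower. RSM23 was called higher at 1.01 and 0.90 with a mean of 0.96 (z = 2.81). MRP17 was called lower at −0.18 (z = −2.02), was not above the empty spots and is named after its value was seen. Of 26 assembly factors measured, 1 was called higher and 0 lower. It was COX23, which acts in the delivery of copper to cytochrome c oxidase, at 0.34 and 0.31 with a mean of 0.33 (z = 2.35).

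In TAT12 with S288C, with 3.11% of all genes called higher and 1.94% lower, the same lists held 4 calls. COX6, a subunit of cytochrome c oxidase, was higher at 0.43 (z = 2.23). The mitochondrial DNA polymerase MIP1 was lower at −0.56 (z = −2.02), as were the ribosomal proteins NAM9 at −0.37 and MRPS16 at −0.32. None of these genes was above the empty spots in both dyes of both arrays, and they are named after their values were seen.

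In TAT12 with AT22, with 3.38% of all genes called higher and 0.9% lower, QCR8 was called higher at 0.30 and 0.71 with a mean of 0.51 (z = 2.45), and FYV4, a protein of the small ribosomal subunit, lower at −0.31 and −0.47 with a mean of −0.39 (z = −2.07). ATP1, the alpha subunit of the ATP synthase, was at 0.40 (z = 5.33) and ATP5 at 0.22 (z = 3.07). RSM10, MRPS28 and AEP3 were called higher at 0.20, 0.16 and 0.20, and PET127 lower at −0.16. ATP1 and the genes after it were not above the empty spots in both dyes of both arrays and are named after their values were seen.

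In AT22 with S288C, 0.537% of all genes were called higher and 4.09% lower. QCR9 was called lower at −1.22 and −0.36 with a mean of −0.79 (z = −2.91). ATP20, which serves the pairing of ATP synthase complexes, was called lower at −0.47 and −1.03 with a mean of −0.75 (z = −2.80). COR1, MRP21, OXA1 and COA1 were called lower and RSM28 higher, at −0.66, −0.61, −0.61, −1.09 and 0.50. These 5 were not above the empty spots and are named after their values were seen. With the second array turned, none of these 7 genes was called, QCR9 being at −0.43 and ATP20 at 0.28, and the calls were then ATP1, ATP4, ATP5, TIM11 and MRP17 lower, from −0.55 to −0.19, and CBS2 higher at 0.20. Over all genes, 34 were called higher and 259 lower as labelled, and 76 and 179 with the array turned.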

How the data were processed

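Total RNA of mid-exponential cultures was made into labelled cDNA and hybridised on 8 arrays by the study's array unit. How the cDNA was primed is not given in the sources used here, and yeast mitochondrial mRNAs are known to lack the poly(A) tails of nuclear ones. For every spot and dye the authors deposited an intensity as scanned and the background around it, neither of them normalized. The authors also deposited a z-score per gene and comparison, made with genArise over both arrays of a swap (version, background and centring not stated, column medians 0.11, 0.0085, −0.027 and −0.10). These scores are the authors' own comparison and were used only as an alternative count. Their direction was taken by setting them against the scanner values (r = 0.78 to 0.93 over genes). Deposited net intensities were not used.

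Background was removed by the normexp method (offset 50) and log2 ratios were normalized by loess within each array (limma 3.58.1, R 4.3.3), with the 64 control and 320 empty spots given no weight. Duplicate spots were averaged, the second array was turned by the labelled dyes, and both arrays were averaged. A gene was above the empty spots when its net signal passed their 95th percentile in both dyes of both arrays. For the z-score, 100 genes of like mean intensity (50 dimmer and 50 brighter ones) were used, with the threshold of 2 of the study's methods. No p-value was drawn from it. The limma fit was tested on simulated data, while background correction and loess normalization were not. Scores and plots were made in Python 3.11.15 (numpy 2.4.6, pandas 2.3.3, matplotlib 3.10.9). Names from the RefSeq table of genes were found for 5763 of the 6336 genes, and 573 keep the array's own name. Coordinates are left out because the array files state no build, and no sequences were printed.

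The 8 genes and the 6 lists of nuclear genes were chosen with earlier results of these data known. Named from each list were at most 2 genes per comparison with the largest absolute z-score past the threshold, the same sign on both arrays and a signal above the empty spots. Named as most alike were the 5 genes with the highest Pearson correlation. COA2 of the assembly list was not matched.

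Alternatives were no background correction, median centring, genes above the empty spots only, each array alone, the second array of AT22 with S288C turned, least squares over the loop, the authors' z-scores, an SD over all genes, a threshold of 1, a fold change of 2, a limma fit over the loop and loess within printed blocks. The number of arrays limits the precision.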

Additional observations from a re-analysis of the deposited data

How the results depend on the processing

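No paired analysis was possible because every comparison had 1 dye swap, and the arrays carry no replicate number. The count of members called changed as follows. In AT22 with S288C, where it was 1, it became 0 without background correction, on the first array alone, on the second array alone, with the second array turned, at a fold change of 2 and in the limma fit, and 3 at an absolute z-score above 1. In TAT12 with S288C, where it was 0, it became 1 with the SD over all genes and 5 at a threshold of 1. In TAT12 with TTY23, where it was 3, it became 1 on the first array alone, 5 at a threshold of 1, and 0 at a fold change of 2 and in the limma fit. It stayed at 3 with loess within printed blocks and with the authors' z-scores, but in both OLI1 was called in place of ATP6. In TAT12 with AT22, where it was 0, it became 1 on each array alone and 2 at a threshold of 1. The median of the 8 genes in TAT12 with S288C became −0.024 with median centring, and that of TAT12 with AT22 became 0.21 with least squares over the loop. Causes of these changes were not tested. The other 58 values of medians and counts under an alternative stayed within the spread of the arrays or within 1.5 times the count. Of the ratios of single genes, 196 stayed within the spread between arrays and 27 did not, and none of the called ones changed sign. The ratio of an array alone always lies within this spread of the mean. Keeping only genes above the empty spots leaves the ratio of each kept gene unchanged. These settings could not move a ratio of a single gene, so the 196 overstate its stability.

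The limma fit (lmFit and eBayes with Benjamini-Hochberg adjustment) had 1 residual degree of freedom, which the closed loop of the other 3 strains gave, and called 0 genes in any comparison. At an unadjusted p under 0.05 it had 91 genes for AT22 and 253 for TAT12 set against S288C, and 150 and 94 for TAT12 set against TTY23 and AT22. Of the 6336 genes tested, each of these is a share below 0.05. TTY23 was outside this loop, so its spread was not measured. Signal over the empty spots limited COX2, which did not exceed them in Alexa647 on either array of TAT12 with AT22. In AT22 with S288C, its signals in AT22 exceeded them only narrowly.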
